A study of Homo sapiens with 21 samples.

Results

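The 49 genes described here encode proteins that receive, fold, test and discard secretory and membrane proteins in the endoplasmic reticulum. They were listed by name, not by a threshold on their values, but with earlier results of these data known. Counts set against all genes are therefore a description and not an independent test. All 49 were found among the 23368 features of the mRNA count table. By role they comprised 6 sensors or regulators, 11 chaperones and cochaperones of the HSP70 and HSP90 systems, 3 lectin chaperone genes, 9 disulfide isomerases and related proteins, 10 translocon genes and 10 genes of endoplasmic reticulum-associated degradation (ERAD). After cyclosporine A, 33 of the 49 rose and 5 fell. The rises took in 10 of 11 chaperones, 9 of 10 translocon genes, 6 of 10 degradation genes, 4 of 6 sensors, 3 of 9 isomerases and 1 of 3 lectin chaperone genes. Of all genes tested, 33.3% were higher and 33.5% lower, so the shares of isomerases and lectin chaperone genes that rose equal the background. The 3 lectin chaperone genes include *UGGT1*, the glucosyltransferase that serves these chaperones, and none of the 3 fell.

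HK-2 is an immortalised human line derived from proximal tubule epithelium, and it was the only line used. Cyclosporine A is an immunosuppressant that binds cyclophilins and inhibits calcineurin, and the series addressed how such inhibitors injure the kidney. For mRNA, 4 libraries came from cells given 5 µg/mL cyclosporine A for 48 h and 4 from cells given 0.1% ethanol as vehicle for the same time, both in a serum-free medium with epidermal growth factor and pituitary extract. RNA crosslinked to AGO2, the Argonaute protein that carries microRNAs, was recovered after 24 h of either treatment, from 2 libraries each. These cells also received 100 µM 4-thiouridine. An antibody to all Argonaute proteins was used for 1 more sample, from cells that also received 100 µM 4-thiouridine. For that sample the labels state no cyclosporine A, vehicle or time. Whether libraries of a group stem from separate cultures is not stated in the labels, so the error behind each p-value is that between libraries and may be technical only. In bulk RNA, fewer cells of a kind and less RNA per cell cannot be told apart.

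Proteins enter this compartment through the SEC61 channel, and the luminal chaperone HSPA5 binds them as they emerge. Lectin chaperones read sugar chains on the new protein, disulfide isomerases set its bonds, and proteins that fail to fold are passed back to the cytosol by the SEL1L and SYVN1 ligase complex. When unfolded proteins accumulate, the transmembrane proteins ERN1 (IRE1), EIF2AK3 (PERK) and ATF6 signal to the nucleus, where the transcription factors XBP1, ATF4 and cleaved ATF6 raise many of the genes described here. Gene counts do not measure the cutting of ATF6, the splicing of XBP1 or the activity of either kinase, so the values below are transcript levels alone.

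Total counts ranged from 3965431 to 7041604 per mRNA library, and no member had fewer than 55 counts in any library. Levels are given in CPM, counts scaled to the size of the library after TMM normalization. A gene was said to rise or fall when edgeR's quasi-likelihood test, adjusted by the Benjamini-Hochberg method over 12855 tested genes, gave a p under 0.05. Of the marker lists, the 5 epithelial genes summed to 732 to 799 CPM with vehicle and 856 to 958 CPM with cyclosporine A; the keratins *KRT8*, *KRT18* and *KRT19* rose, while the adhesion genes *EPCAM* (-0.37 ± 0.07 on the log2 scale) and *CDH1* (-2.46 ± 0.25) fell. Of 7 proximal tubule genes, 2 (*GGT1* and *MME*) were high enough to be tested, and the list summed to 198 to 222 CPM and 292 to 306 CPM. *MME* rose from 60.3 ± 5.4 to 201 ± 9.73 CPM (SD, n = 4), and *GGT1* fell from 152 ± 11.8 to 99.1 ± 8.31 CPM. The uptake receptors *LRP2* and *CUBN*, which define that segment in the kidney, were near the floor, so the tubule identity of the line is only partly visible in these data. Endothelial genes summed to at most 0.368 CPM and podocyte genes to at most 0.142 CPM. Distal tubule genes summed to 2.58 to 3.84 CPM with vehicle and 0.920 to 1.85 CPM with cyclosporine A, and the part of these marker shifts in the results below was not tested. The immune list summed to 6.24 to 8.68 CPM and 0 to 2.20 CPM, with 3 of its 4 genes at 0 in all libraries.

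Most genes tested differed between the cyclosporine A and the vehicle libraries. Of all genes tested, 66.9% were called in either direction, 33.3% higher and 33.5% lower, and the median log2 fold change was -0.00. Against that background, 33 members were higher, 5 were lower and 11 did not pass, with a median log2 fold change of 0.31 and a range from -0.85 to 1.84. A rise of at least 2-fold was found for 7 members, against 4.41% of all genes tested. The 4 libraries of one treatment lay wholly apart from those of the other for 33 members (67.3%), and for 57.9% of all genes tested. The share of all counts that fell on the 49 genes was 1.91% ± 0.07 (SD, n = 4) with vehicle and 2.53% ± 0.10 with cyclosporine A. *HSPA5* alone took 0.187% ± 0.0104 and 0.499% ± 0.0273. This 1 abundant transcript thus made up a large part of the added share, while the counts of genes above give each member the same weight.

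**Figure D1:**
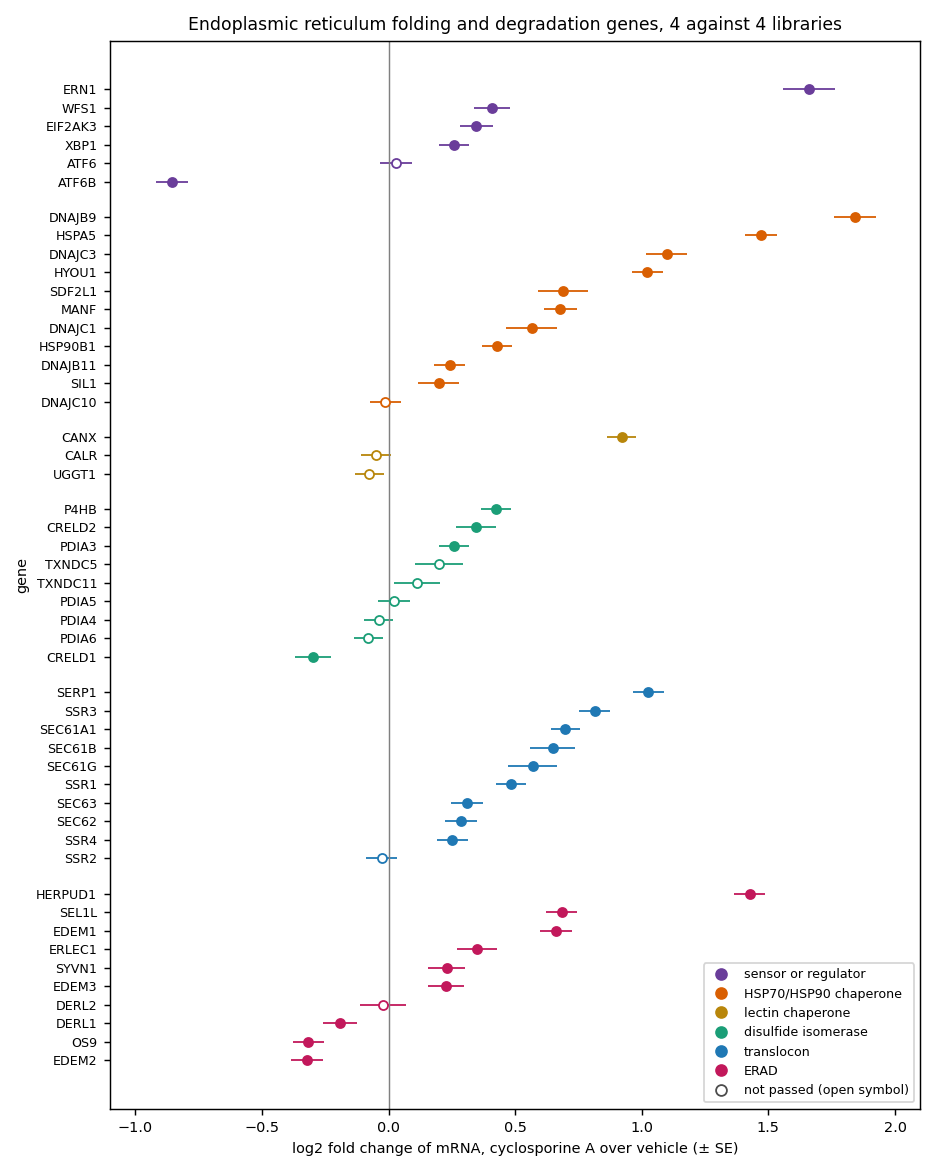
Log2 fold change (cyclosporine A over vehicle, horizontal axis) with its standard error for each of the 49 genes, ordered by role, from 4 libraries per treatment; open symbols did not pass the test. Chaperone and translocon genes lie mostly to the right of 0, isomerases range from -0.30 (*CRELD1*) to 0.42 (*P4HB*), and *ATF6B* (-0.85) and *DNAJB9* (1.84) mark the ends of the range.

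Promoters of some of these genes hold known stress response sequence elements. The endoplasmic reticulum stress element (ERSE) is CCAAT, any 9 bases, then CCACG; ERSE-II is ATTGG, any base, then CCACG; and the unfolded protein response element (UPRE) is TGACGTGG. Both kinds of ERSE are known as sites of ATF6 with the CCAAT-binding factor NF-Y, and the UPRE is known as a site of spliced XBP1 and of ATF6. Exact matches on both strands were sought in 300-base promoters from RefSeq (GRCh38.p14), 250 bases before and 50 after the transcription start, which were held for 46 of the 49 genes; *DERL1*, *PDIA3* and *DNAJC1* were not among them. An ERSE was found in 8 members (17.4%) and in 0.0916% of 27305 genes. An ERSE-II was found in 3 members (6.52%) and in 0.0696% of genes, and a UPRE in 7 members (15.2%) and in 0.927%. Any of the 3 was found in 17 members (37.0%) and in 1.08% of all genes. The factors known to bind these elements are also known to raise many of the listed genes. These shares therefore describe the members and are not an independent result.

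The stretches around 7 of these elements are printed because they show an ERSE in 6 genes, of which some rose and some did not pass, and the ERSE-II of *HERPUD1* beside them. Capitals mark the outer blocks of the element, the stretches run 5′ to 3′ on the strand of the gene, and an element in the reverse direction reads as its reverse complement. Positions are counted from the first transcribed base as 0.
HSPA5: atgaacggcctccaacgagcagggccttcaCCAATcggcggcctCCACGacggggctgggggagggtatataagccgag
CANX: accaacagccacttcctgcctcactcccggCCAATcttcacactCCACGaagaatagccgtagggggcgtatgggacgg
SERP1: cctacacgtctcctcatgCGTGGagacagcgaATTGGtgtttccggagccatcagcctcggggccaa
XBP1: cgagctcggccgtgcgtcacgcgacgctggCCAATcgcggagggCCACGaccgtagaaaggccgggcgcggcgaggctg
PDIA6: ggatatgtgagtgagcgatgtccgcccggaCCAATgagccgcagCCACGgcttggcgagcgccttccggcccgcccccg
CALR: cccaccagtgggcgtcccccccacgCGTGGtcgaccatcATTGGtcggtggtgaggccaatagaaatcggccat
HERPUD1: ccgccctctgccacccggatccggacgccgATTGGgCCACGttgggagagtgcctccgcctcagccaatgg
The *HSPA5* stretch is chr9:125241361-125241439 on the minus strand, with its ERSE at -66 to -48. The *CANX* stretch is chr5:179698748-179698826 on the plus strand, with the element at -151 to -133. The *SERP1* stretch is chr3:150546680-150546746 on the minus strand, with a reversed ERSE at -232 to -214. The *XBP1* stretch is chr22:28800573-28800651 on the minus strand, with the element at -52 to -34. For *PDIA6* it is chr2:10812823-10812901 on the minus strand, at -86 to -68, and for *CALR* chr19:12938359-12938432 on the plus strand, where a reversed ERSE lies at -225 to -207. The *HERPUD1* stretch is chr16:56931995-56932065 on the plus strand and holds an ERSE-II at -117 to -107.

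*HYOU1* held 2 copies of the ERSE-II, at -185 to -175 and at -79 to -69, and a UPRE at -188 to -181 that overlaps the more distant copy. *HSP90B1* held 2 copies of the ERSE, at -194 to -176 and at -89 to -71. *CRELD2* (ERSE at -80 to -62) and *SDF2L1* (ERSE-II at -188 to -178) complete the 11 members with either kind of ERSE. Of these 11, 9 rose and none fell, with a median log2 fold change of 0.69 and a range from -0.08 to 1.47. Of the 35 members with neither, 22 rose and 4 fell, with a median of 0.25 and a range from -0.85 to 1.84. The gene with the largest rise, *DNAJB9*, had no match in its window, while *PDIA6* and *CALR* had an ERSE and did not pass the test. Outside the list, 17 genes held an ERSE. Of these, 7 were found by symbol among the genes tested, with 2 higher, 2 lower and a median of -0.30. Also outside the list, 16 genes held an ERSE-II, of which 11 were tested, with 3 higher, 6 lower and a median of -0.25. Low counts and a symbol missing from the count table were not told apart for the untested genes. A match describes letters in a window; no binding was measured.

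**Figure D2:**
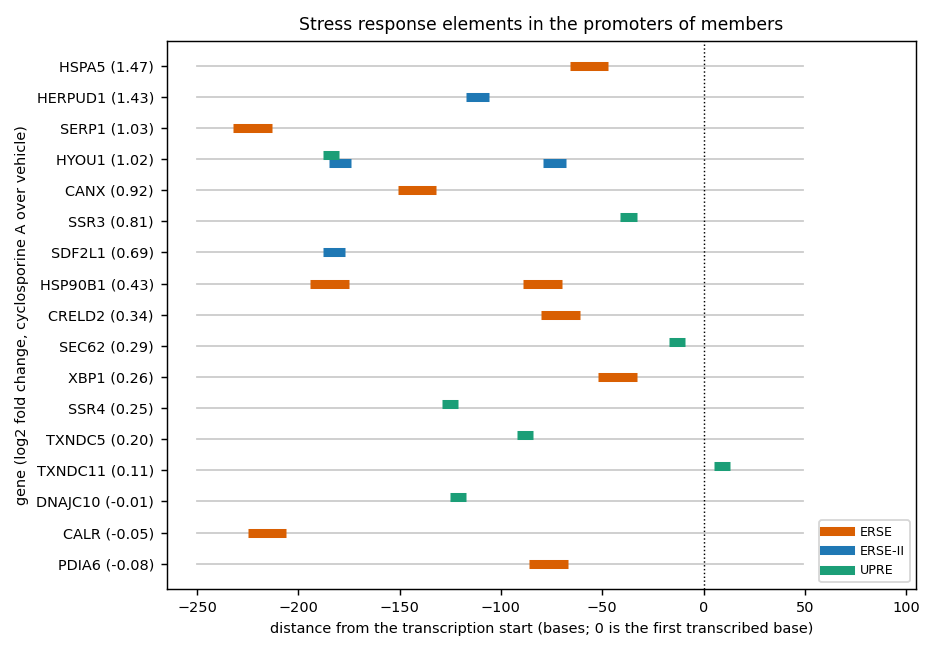
Positions of ERSE, ERSE-II and UPRE matches from 250 bases before to 50 bases after the transcription start (horizontal axis, bases) in the 17 members with a match, ordered by log2 fold change, which is given in brackets. Genes with an ERSE stand at the top (*HSPA5*, 1.47) and at the bottom (*PDIA6*, -0.08) of the order.

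Among the sensors and regulators, 4 of 6 rose, 1 fell and 1 did not pass. *ERN1*, the kinase and endoribonuclease that splices *XBP1* mRNA, stood at 16.5, 14.7, 14.2 and 12.4 CPM in vehicle replicates 1 to 4 and at 51.6, 45.2, 41.0 and 47.3 CPM in cyclosporine A replicates 1 to 4. The treated libraries all lay above the controls, a log2 fold change of 1.66 ± 0.10 (SE; edgeR adjusted p = 6.10e-21). *EIF2AK3*, the kinase that slows translation by phosphorylating eIF2 alpha, read 96.2, 94.8, 85.7 and 84.9 CPM with vehicle and 115, 119.7, 117 and 109 CPM with cyclosporine A. Here too the groups did not overlap, but the rise was 0.35 ± 0.07. *XBP1*, the transcription factor made from the ERN1-spliced mRNA, read 175, 167, 161 and 155 CPM and then 193, 191, 200.2 and 205 CPM, again with no overlap, a rise of 0.26 ± 0.06. *WFS1*, a membrane protein known to restrain the stress response, read 71.5, 71.4, 74.5 and 60.3 CPM and then 93.6, 97.0, 91.1 and 88.5 CPM, apart in all libraries, a rise of 0.41 ± 0.07.

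The ATF6 paralogs parted. *ATF6* read 122, 109, 111 and 117 CPM with vehicle and 120.1, 112, 121 and 116 CPM with cyclosporine A, so that the treatments overlapped and the log2 fold change was 0.03 ± 0.06 (edgeR adjusted p = 0.689). *ATF6B*, the less active relative of ATF6, read 236, 228, 222 and 192 CPM with vehicle and 124, 123, 123 and 117 CPM with cyclosporine A. All treated libraries were lower than all controls, and the change of -0.85 ± 0.06 (edgeR adjusted p = 7.60e-18) was the deepest fall among the 49. Summed over the 6 genes, the sensors took 0.0683% ± 0.0031 of counts with vehicle and 0.0676% ± 0.0004 with cyclosporine A, since the loss of *ATF6B* counts offset the gains.

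Of the chaperones and cochaperones of the HSP70 and HSP90 systems, 10 of 11 rose, with a median log2 fold change of 0.68. Their summed share of counts was 0.493% ± 0.0244 with vehicle and 0.919% ± 0.0439 with cyclosporine A. *HSPA5* (BiP, the luminal HSP70) read 2009, 1849.7, 1758 and 1738 CPM in the vehicle libraries and 5446, 5267, 4889.6 and 4793 CPM in the cyclosporine A libraries. The lowest treated library exceeded the highest control by more than the whole range of either group, and the change was 1.47 ± 0.06 (SE), or 2.77-fold. *DNAJB9* (ERdj4, a luminal J-domain cochaperone of HSPA5) read 30.2, 24.8, 25.8 and 21.9 CPM and then 91.9, 94.5, 92.0 and 95.9 CPM. It had the largest log2 fold change of the 49, 1.84 ± 0.08 or 3.59-fold (edgeR adjusted p = 1.74e-27). *DNAJC3* (p58IPK, a cochaperone that also restrains EIF2AK3) read 50.9, 44.2, 42.6 and 37.3 CPM and then 83.7, 101, 96.2 and 99.5 CPM, again apart in all libraries, a rise of 1.10 ± 0.08.

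The cochaperones were not moved alike. *HYOU1*, a large HSP70 relative that exchanges the nucleotide of HSPA5, rose by 1.02 ± 0.06, while *SIL1*, which has the same task, changed by 0.20 ± 0.08 with overlapping groups and an adjusted p of 0.0293 in edgeR. *SIL1* lost its call under 7 of 14 alternative fits and was not called in the authors' deposited table. *HSP90B1* (GRP94, the luminal HSP90) rose by 0.43 ± 0.06, *MANF*, a secreted HSPA5 partner, by 0.68 ± 0.06, and *SDF2L1*, which keeps HSPA5 clients soluble with DNAJB11, by 0.69 ± 0.10. The membrane J-domain protein *DNAJC1* rose by 0.56 ± 0.10 and *DNAJB11* by 0.24 ± 0.06. *DNAJC10* (ERdj5), a J-domain protein that reduces disulfides ahead of degradation, was at -0.01 ± 0.06 and did not pass.

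**Figure D3:**
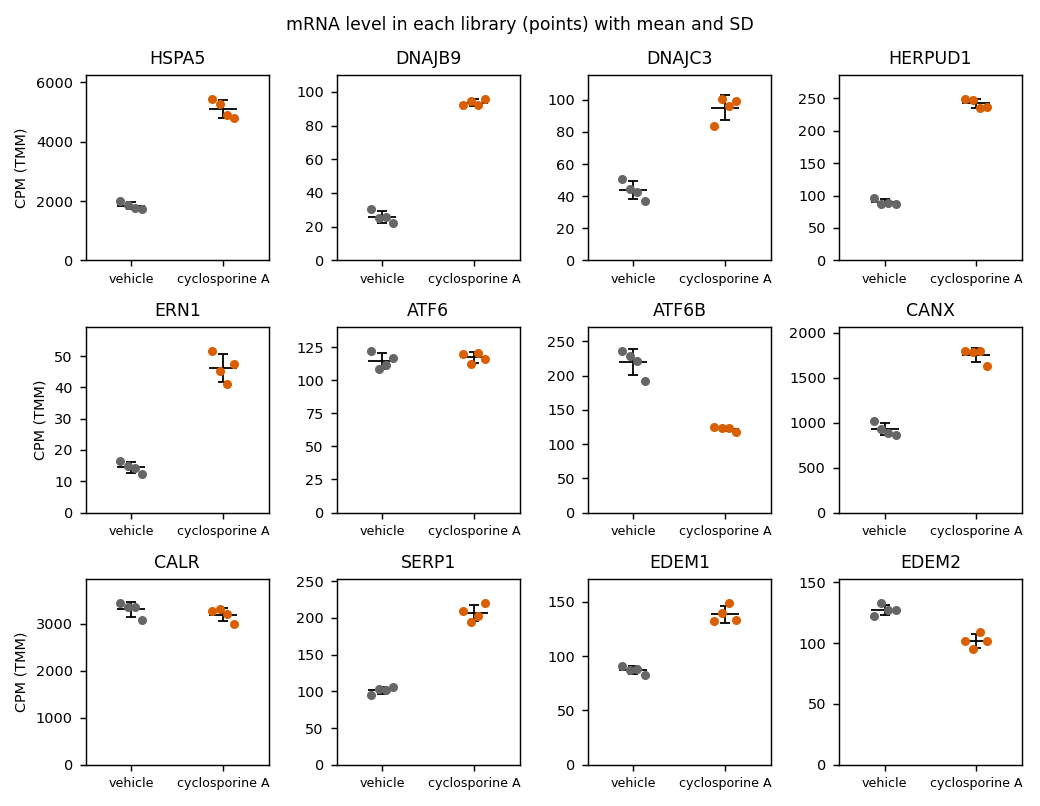
CPM in each library (vertical axis, linear from 0; 1 point per library, 4 per treatment, with the mean and SD as bars) for 12 members. *HSPA5*, *DNAJB9*, *ERN1* and *HERPUD1* are higher and *ATF6B* is lower in all 4 cyclosporine A libraries than in any vehicle library.

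The lectin chaperones *CANX* and *CALR* parted. Of the 3 genes in this role, 1 was higher (33.3%) and none was lower, against 33.3% and 33.5% of all genes tested. *CANX*, the membrane-bound calnexin, read 1019.7, 932, 885 and 866 CPM with vehicle and 1797, 1790.4, 1793 and 1631 CPM with cyclosporine A. The groups lay wide apart, with a rise of 0.92 ± 0.06 (edgeR adjusted p = 1.50e-20). *CALR*, its soluble counterpart calreticulin, was at -0.05 ± 0.06, and *UGGT1*, the glucosyltransferase that sends unfolded glycoproteins back to both lectins, at -0.08 ± 0.06; neither passed. Under upper quartile scaling, which moved the median of all genes to -0.08, both were called lower (-0.13 and -0.15), and *UGGT1* also under library totals (-0.13).

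Among disulfide isomerases and related proteins, 3 rose, 1 fell and 5 did not pass, with a median log2 fold change of 0.11. The share higher, 33.3%, equals that of all genes tested, and the share lower, 11.1%, compares with 33.5%. *P4HB* (PDI, the founding isomerase and a subunit of collagen prolyl hydroxylase) read 2369, 2319, 2381 and 2075 CPM and then 3224, 3125, 3009.8 and 2906 CPM. Its groups did not overlap, and it rose by 0.42 ± 0.06 (edgeR adjusted p = 8.47e-09), the most in this role. *CRELD2*, a secreted protein with isomerase activity, read 43.4, 47.3, 49.97 and 46.3 CPM and then 63.6, 55.0, 57.3 and 60.3 CPM, apart in all libraries, a rise of 0.34 ± 0.08. Its paralog *CRELD1*, known for a part in heart valve development, read 102, 103, 108 and 84.9 CPM and then 83.5, 77.7, 87.2 and 75.4 CPM. The lowest control lay inside the treated range, and *CRELD1* changed by -0.30 ± 0.07. *PDIA3*, the isomerase that works with both lectins, rose by 0.26 ± 0.06. The isomerases *PDIA4* (-0.04 ± 0.06), *PDIA5* (0.02 ± 0.06) and *PDIA6* (-0.08 ± 0.06) did not pass, nor did the thioredoxin-domain genes *TXNDC5* (0.20 ± 0.10) and *TXNDC11* (0.11 ± 0.09). *PDIA6* was called lower under upper quartile scaling (-0.16) and under library totals (-0.13).

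Of the 10 translocon genes, 9 rose, and for those 9 the groups did not overlap. Their summed share of counts was 0.173% ± 0.0017 with vehicle and 0.244% ± 0.0056 with cyclosporine A. *SERP1* (RAMP4, a small protein that associates with the channel) read 95.3, 103, 102 and 106 CPM and then 209, 194, 202 and 220.2 CPM. Every treated library lay far above every control, with a rise of 1.03 ± 0.06 (edgeR adjusted p = 1.29e-21). *SSR3*, a subunit of the translocon-associated protein complex, read 176, 165, 181 and 187 CPM and then 292, 329, 325 and 299 CPM, a rise of 0.81 ± 0.06. *SEC61A1*, the pore subunit, read 602, 587, 573 and 518 CPM and then 948, 943, 943 and 869 CPM, a rise of 0.70 ± 0.06.

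The other pore subunits rose with it, *SEC61B* by 0.65 ± 0.09 and *SEC61G* by 0.57 ± 0.10. *SEC62* and *SEC63*, which help post-translational import, rose by 0.29 ± 0.06 and 0.31 ± 0.06. In the translocon-associated complex, *SSR1* rose by 0.48 ± 0.06 and *SSR4* by 0.25 ± 0.06, while *SSR2* was at -0.03 ± 0.06 and did not pass, so that 3 of its 4 subunits rose by differing amounts.

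Of the 10 degradation genes, 6 (60%) were higher, 3 (30%) were lower and 1 did not pass, against 33.3% higher and 33.5% lower among all genes tested, so the share that fell is near the background. *HERPUD1*, a membrane protein that assembles the SYVN1 ligase complex, read 96.5, 87.8, 88.9 and 86.5 CPM and then 249, 247, 236 and 238 CPM. The groups were far apart and the change was 1.43 ± 0.06, or 2.69-fold (edgeR adjusted p = 2.93e-28). *SEL1L*, the scaffold of that complex, read 210.4, 180.2, 172 and 181 CPM and then 296, 301, 323 and 278 CPM, apart in all libraries, a rise of 0.68 ± 0.06. *EDEM1*, which trims mannose from proteins bound for degradation, read 90.8, 87.4, 88.3 and 82.6 CPM and then 132, 139, 149 and 133 CPM, a rise of 0.66 ± 0.06. Its paralog *EDEM2*, known for the initial mannose cut, went the other way, from 123, 133, 127 and 127 CPM to 101, 95.3, 109 and 102 CPM, also with no overlap, a change of -0.32 ± 0.06.

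The lectins that read the trimmed glycans also parted: *OS9* changed by -0.32 ± 0.06 and *ERLEC1* by 0.35 ± 0.08. *SYVN1* (HRD1, the ubiquitin ligase itself) rose by 0.23 ± 0.07 and *EDEM3* by 0.23 ± 0.07, both with overlapping groups, and both missed the threshold under upper quartile scaling (adjusted p = 0.0607 and 0.0652 in edgeR). *DERL1*, a membrane protein of the exit channel, changed by -0.19 ± 0.07, also with overlapping groups, and missed the threshold without cyclosporine A replicate 2 (edgeR adjusted p = 0.0564). *DERL2*, its paralog, was at -0.02 ± 0.09 and did not pass.

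Ratios of partner genes inside each library do not depend on how libraries are scaled, and 15 such pairs were compared. In 12 of them the 4 cyclosporine A libraries lay wholly apart from the 4 vehicle libraries; each of the 12 had the smallest p that 4 against 4 allows in an exact two-sided permutation test, 0.0286, or 0.0357 after adjustment over the 15. Of single genes, 57.9% of those tested were wholly apart between treatments, and the share among other pairs of genes was not computed, so nothing particular to these pairs is read from the count of 12. The log2 ratio of *HSPA5* to *HSP90B1* was higher with cyclosporine A by 1.04 ± 0.04 (SE), and that of *HYOU1* to *SIL1* by 0.83 ± 0.07. Between sensors, *ERN1* gained on *EIF2AK3* by 1.32 ± 0.10 and *ATF6* on *ATF6B* by 0.88 ± 0.08. *DNAJB9* gained on *DNAJC1* by 1.30 ± 0.10.

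Soluble *CALR* lost ground to membrane-bound *CANX*, with a ratio change of -0.97 ± 0.04. *PDIA4* lost to *PDIA3* (-0.30 ± 0.04), and *CRELD2* gained on *CRELD1* (0.63 ± 0.10). In the degradation branch, *EDEM1* gained on *EDEM2* by 0.99 ± 0.06 and on *EDEM3* by 0.42 ± 0.06, *SEL1L* gained on *SYVN1* by 0.44 ± 0.06, and *OS9* lost to *ERLEC1* (-0.68 ± 0.08). The ratios of *SEC62* to *SEC63* (-0.03 ± 0.06), *SEC61A1* to *SEC61B* (0.06 ± 0.12) and *DERL1* to *DERL2* (-0.16 ± 0.09) did not pass, with adjusted exact permutation p-values of 0.686, 0.643 and 0.165. Pairs that share a gene, such as both *EDEM1* pairs, are not independent of each other.

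**Figure D4:**
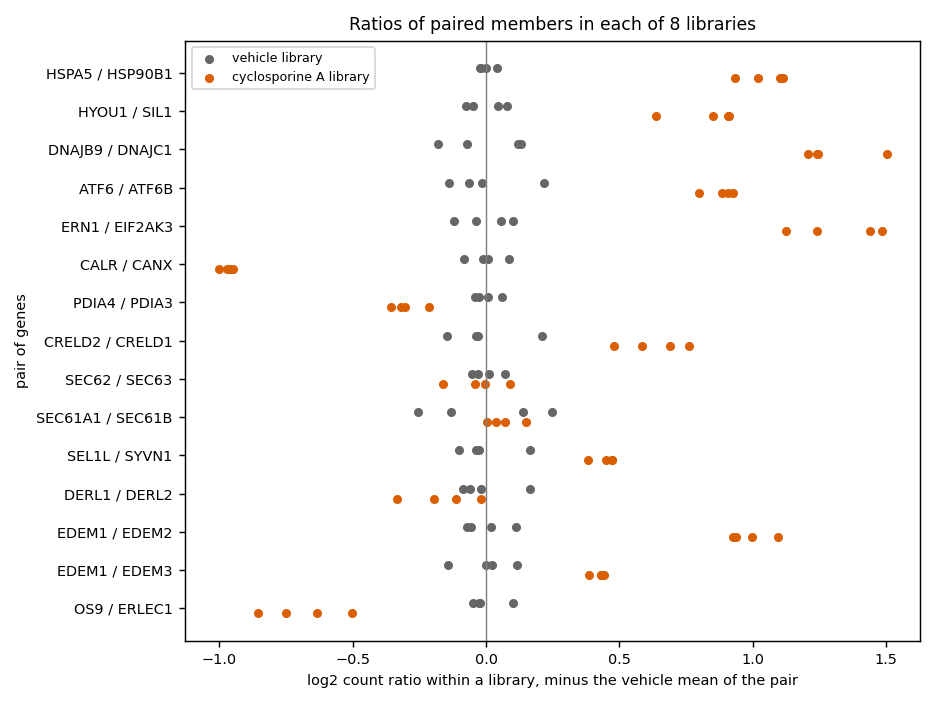
Log2 ratio of 2 partner genes within each library, minus the vehicle mean of the pair (horizontal axis), for 15 pairs, with 1 point per library and 4 libraries per treatment. The treatments are separate in 12 pairs and overlap for *SEC62* with *SEC63*, *SEC61A1* with *SEC61B*, and *DERL1* with *DERL2*.

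Further genes of the same compartment, in 9 lists drawn up by function with the members in view, were read from the same fit. Of 75 genes, 73 were tested: 28 rose (38.4%), 24 fell (32.9%) and 21 did not pass, with a median log2 fold change of -0.01. These shares are near the 33.3% and 33.5% of all genes tested, and the counts of the single lists below are small and are to be read against the same shares. Genes listed as outputs of the EIF2AK3 arm all rose (6 of 6, median 0.90), and for 5 of them the groups did not overlap. Among them, *PPP1R15A* (GADD34, which reverses the phosphorylation of eIF2 alpha) was at 2.76 ± 0.07. *DDIT3* (CHOP, a transcription factor of prolonged stress) was at 2.11 ± 0.07. Kinase activity was not measured, so whether EIF2AK3 lay behind these rises was not tested. Genes of signal recognition and targeting were 7 higher and 2 lower of 11, with a median of 0.46; *HSPA13*, a microsomal HSP70 relative placed in that list, rose by 0.97 ± 0.07 and *SRP72*, a protein of the signal recognition particle, by 0.81 ± 0.07.

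KDEL receptors return escaped luminal chaperones such as HSPA5 from the Golgi, and none of the 3 rose. *KDELR3* fell from 63.2 ± 1.91 to 33.0 ± 1.21 CPM (SD, n = 4), a change of -0.94 ± 0.08, and *KDELR1* changed by -0.61 ± 0.06, while the remaining receptor did not pass. Of the 6 site proteases and related bZIP factors, 4 fell, both proteases among them (-0.42 ± 0.06 and -0.36 ± 0.08), and 1 rose. *CREB3L2* rose by 0.95 ± 0.07 and *CREB3L1* changed by -0.84 ± 0.09. These are membrane-bound transcription factors released by the proteases that cut ATF6. Genes of glycan trimming had none higher and 3 lower of 6, among them the lectin *MLEC* (-0.35 ± 0.06) and the glucosidase *MOGS* (-0.33 ± 0.06).

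The remaining lists were mixed. Signal peptidase subunits split 2 higher and 3 lower of 5, and its alternative catalytic subunits went opposite ways, *SEC11C* by 1.40 ± 0.13 and *SEC11A* by -0.57 ± 0.07. The oligosaccharyltransferase, which attaches the sugar chains, had 3 higher and 2 lower of 10, with *STT3B*, a catalytic subunit, at 0.38 ± 0.06 and *DDOST* at -0.23 ± 0.06. Other luminal oxidoreductases had 3 higher and 4 lower of 11, with *TMX1*, a membrane thioredoxin, at -0.54 ± 0.08 and *ERO1LB*, an oxidase that recharges isomerases, at 0.78 ± 0.14. ERAD extraction and ubiquitination had 6 higher and 4 lower of the 15 that could be tested among 17, with *NPLOC4*, a cofactor of the extracting ATPase, at 0.39 ± 0.06 and *UBE2J1*, a ubiquitin-conjugating enzyme, at 0.50 ± 0.08.

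**Figure D5:**
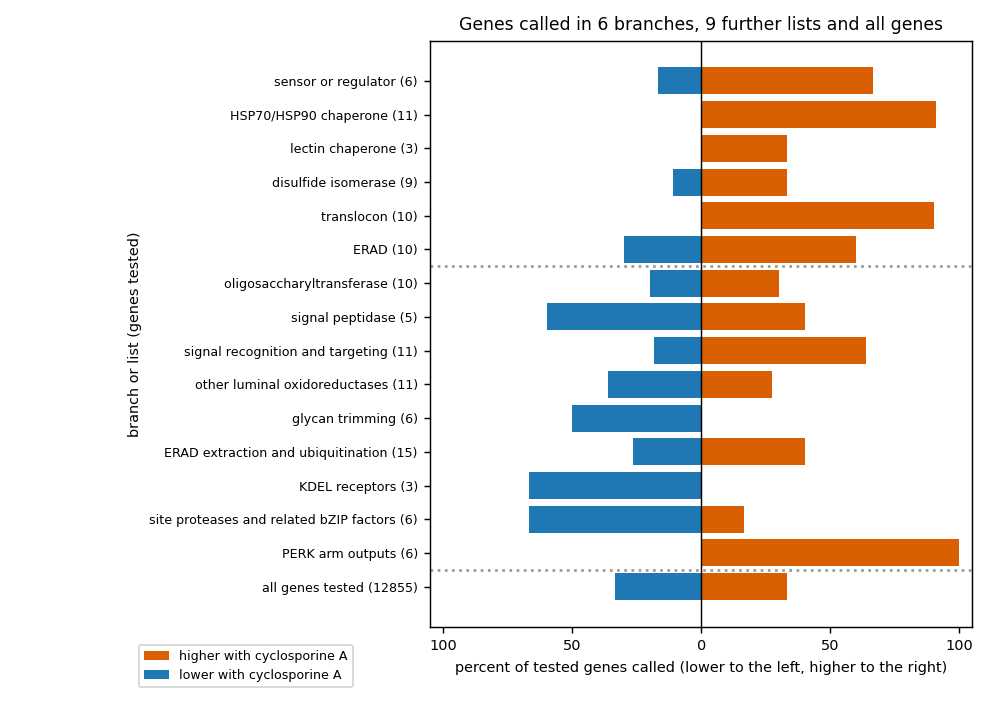
Percent of tested genes called higher (right) and lower (left) in the 6 roles of the 49 members, in 9 further lists and among all 12855 genes tested, with the number of genes in brackets. Chaperones and translocon genes reach furthest to the right among the members, and KDEL receptors and glycan trimming have calls to the left only.

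AGO2 clusters, stretches of RNA recovered with the protein, touched 32 of the 49 genes in the vehicle list (66 of 56985 clusters) and 23 in the cyclosporine A list (44 of 36812). The lists pool both libraries of a treatment and differ in length, so their counts were not tested against each other. Introns held 40 and 22 of these clusters, and 3′ untranslated regions, where microRNA sites are best known, held 0 and 3. A cluster lay on the coding strand in 64.4% and 61.9% of member clusters with an assigned strand, against 54.9% and 56.1% for all genes, and the rest lay on the strand opposite to the gene. Between the treatments 18 clusters overlapped, 27.3% of the vehicle and 40.9% of the cyclosporine A member clusters. For the genes touched, the introns, the 3′ untranslated regions and this overlap, shares over all genes were not computed. Nothing particular to the members is therefore read from those counts. The list for all Argonaute proteins held 15 member clusters, on 15 genes. For some of them the stated width differed from the span of the coordinates, as for *CANX* (chr5:179125499-179125523, stated width 36). Sequences of that list were not used.

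*HSPA5* had 4 clusters with vehicle and 5 with cyclosporine A, all on the coding strand and none in an intron. Of the clusters in 3′ untranslated regions, all in the cyclosporine A list, those of *HSPA5* and *SEC61A1* lay on the coding strand and are printed with the only exonic coding-strand member cluster that held a seed match, in *HSPA5* in the vehicle list (hg19), and with that microRNA (mature sequence from RefSeq).
HSPA5 3′ UTR, cyclosporine A: ctatttaacaactgggtcat
SEC61A1 3′ UTR, cyclosporine A: tttttatcctggcactggcaaaa
HSPA5 exon, vehicle: cgtaTGGTGCTgctgtccaggct
hsa-miR-29a-3p: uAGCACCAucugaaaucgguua
The clusters lie at chr9:127998587-127998606 on the minus strand, chr3:127788676-127788698 on the plus strand and chr9:128000897-128000919 on the minus strand. Capitals mark the seed of the microRNA, bases 2 to 8, and its reverse complement in the exon cluster. Of 50 abundant miRNAs, 47 had a mature sequence in RefSeq and were searched. A match was found in 1 of 11 exonic coding-strand clusters of the members with vehicle and 0 of 12 with cyclosporine A, against 4.41% and 4.74% of all such clusters. The third cluster in a 3′ untranslated region, on *PDIA3*, had no strand assigned relative to the gene. *ATF6B* had a coding-strand cluster in both lists, classed as promoter or start site. It lay at the 88.3 and 80.9 percentiles of the authors' score within each list. Overlapping clusters in both lists were also found on members that rose, such as *HSPA5* and *SEC61A1*, and on *SSR2*, which did not pass. A link between the clusters, taken at 24 h, and the mRNA levels, taken at 48 h, was not tested.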

How the data were processed

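Raw whole-number counts for each gene symbol were deposited by the authors. The submitters' processing notes name CASAVA 1.8.2, cutadapt, TopHat, Bowtie, DESeq2 and HTSeq, with hg19. No source used here gives their settings or says whether strand was used, so overlapping and antisense genes cannot be told apart. The authors' deposited table of log2 fold changes and adjusted p-values was used only to compare calls: 48 of 49 matched, *SIL1* being the exception. The authors' score per AGO2 cluster, whose unit is not given, was used only for ranks within a list.

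The whole table was fitted in R 4.3.3 by edgeR 4.0.16 (TMM, filterByExpr, quasi-likelihood test, group as the only term), and a call is an adjusted p under 0.05. The SE of a gene's log2 fold change was worked back from that test, as the absolute change divided by the square root of the F statistic. Ratios used log2 counts with a pseudocount of 0.5 and exact permutation in scipy 1.17.1. Cluster starts were written 1-based. Alternatives were DESeq2 1.42.0, voom (limma 3.58.1), other scalings and filters, and each library left out. The steps were tested on simulated data. There edgeR recovered 97 of 100 changes of 1.0 on the log2 scale and 72 of 100 changes of 0.5, with 5 false calls.

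The members and lists were chosen with earlier results of these data known. Values in every library are printed for all sensors and, elsewhere, for the 3 called members with the largest change and the 1 with the largest opposite change; at most 2 genes per further list are named, those with the smallest p. Transcript lengths were not used, so levels are not compared between genes. Protein sequences were not analysed here. Deviations of same-numbered libraries correlated between -0.144 and 0.083, so numbers were not taken as pairs.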

Additional observations from a re-analysis of the deposited data

Results flagged for a closer look

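In 5 of 98 groups of 4 libraries, 1 library stood apart by more than Dixon's critical value for its share of the range. Chance gives about 1 in 20 for independent groups, but these groups come from the same libraries and are not independent. *HSP90B1* was highest in vehicle replicate 1, at 2127 CPM against 1865 to 1904 in the others. *DNAJC1* was lowest in cyclosporine A replicate 3, at 28.3 CPM against 34.8 to 35.3. *SDF2L1* was highest in cyclosporine A replicate 1, at 37.8 CPM against 34.3 to 34.7. *CANX* and *SEC61A1* were lowest in cyclosporine A replicate 4, at 1631 CPM against 1790.4 to 1797 and at 869 CPM against 943 to 948. The share of all counts that fell on the members was also lowest there among the cyclosporine A libraries, 2.39% against 2.54% to 2.60%.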

How the results depend on the processing

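Of the 49 members, 36 kept direction and call in all 14 alternative fits. With upper quartile scaling 8 members were lower and the median log2 fold change was 0.23; with a fold of at least 1.5 also required, 15 were higher and 1 lower. Leaving out 1 library gave medians from 0.28 to 0.34, and between the fits 30 to 34 members were higher. With the replicate number as a block, which the correlations of same-numbered libraries do not call for, 33 were higher and 5 lower, and 8486 genes in all were called against 8597.

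*TXNDC5* was called higher without vehicle replicate 3 (0.27), cyclosporine A replicate 2 (0.23) or replicate 3 (0.23). Of the 11 members that did not pass, 5 changed sign in some fit. *ATF6* gave -0.022 with library totals and -0.049 with the upper quartile, and *PDIA5* -0.030 and -0.056; *DNAJC10* gave 0.00068 in DESeq2. With 1 library left out at a time, *DNAJC10* ranged from -0.047 to 0.036, *PDIA4* from -0.066 to 0.0048, *PDIA5* from -0.018 to 0.095 and *DERL2* from -0.073 to 0.033. The causes were not tested.

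Pairs passing numbered 12 with a pseudocount of 5 as well; without 1 library the exact test cannot go below 0.0571, and with sign flips by number not below 0.125. Clusters with an upper-half score numbered 40 with vehicle and 22 with cyclosporine A, and those in 3′ untranslated regions 0 and 3. Counting error is largest for the least abundant members, the smallest count being 55.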
